A study of Mus musculus with 12 samples.

Results

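Efferocytosis receptors and bridging ligands were followed in gonadal white adipose tissue (GWAT) of mice with and without the ubiquitin ligase HOIP in adipocytes. The members were 8 genes taken by symbol from the table of estimated counts of 55281 annotated genes, namely the receptor tyrosine kinases Mertk, Axl and Tyro3, the endocytic receptor Lrp1, the bridging proteins Gas6, Pros1 and Mfge8, and the cytoplasmic adaptor Elmo1. All 8 were found and all 8 passed the filter on low counts. WT mice were Hoip fl/fl AdipoQ.Cre- and HoipA-KO mice were Hoip fl/fl AdipoQ.Cre+, so both carried the floxed alleles of Hoip (Rnf31) and the KO also carried a Cre driven by the adiponectin promoter, which is active in mature adipocytes. Male mice received a control diet (CD) with 14% fat or a high-fat diet (HFD) with 60% fat from 6 weeks of age for 16 weeks, and were 22 to 24 weeks old. Each of the 4 groups had 3 libraries of polyA RNA, and tissue of 3 mice was pooled for each library. The labels say no more on how separate the pools were, so p-values measure the spread between these pools.

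Efferocytosis is the removal of dying cells by phagocytes. Phosphatidylserine on the dying cell is recognised by bridging proteins in the extracellular space, which bind receptors on the phagocyte. Gas6 and protein S (Pros1) link it to the receptor kinases Tyro3, Axl and Mertk, and Mfge8 links it to integrins, after which adaptors such as Elmo1 activate Rac and the actin cytoskeleton. In obese adipose tissue, macrophages gather around dying adipocytes in crown-like structures. 

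In GRCm38 (GENCODE M21) the genes lie as Mertk at chr2:128698956-128802894 (plus strand), Axl at chr7:25757273-25788705 (minus strand), Tyro3 at chr2:119797733-119818104 (plus strand), Lrp1 at chr10:127538161-127621148 (minus strand), Gas6 at chr8:13465374-13494490 (minus strand), Pros1 at chr16:62854307-62929346 (plus strand), Mfge8 at chr7:79133768-79149060 (minus strand) and Elmo1 at chr13:20090596-20608353 (plus strand). The bases before the transcription start of 4 members are shown. The 3 homologous receptor kinases were taken because they differed in level and in whether they were called, and a difference between their responses was not tested. Mfge8 was taken because it was the 1 member whose genotype effect differed between the diets in the test. The windows are 250 bases of RefSeq (GRCm38.p6), 5′ to 3′ on the strand of the gene, at chr2:128698665-128698914 (plus strand), chr7:25788734-25788983 (minus strand), chr2:119799264-119799513 (plus strand) and chr7:79149061-79149310 (minus strand). The Tyro3 window lies inside the GENCODE locus given above, since RefSeq places this start further downstream. Capitals mark matches to a GC box (GGGCGG) or to the core of a PU.1 site (GAGGAA) on either strand.
Mertk: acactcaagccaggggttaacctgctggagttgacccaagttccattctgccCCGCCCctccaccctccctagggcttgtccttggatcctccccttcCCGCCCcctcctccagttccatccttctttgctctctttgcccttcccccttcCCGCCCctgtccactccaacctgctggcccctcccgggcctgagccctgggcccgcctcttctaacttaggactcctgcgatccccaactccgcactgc
Axl: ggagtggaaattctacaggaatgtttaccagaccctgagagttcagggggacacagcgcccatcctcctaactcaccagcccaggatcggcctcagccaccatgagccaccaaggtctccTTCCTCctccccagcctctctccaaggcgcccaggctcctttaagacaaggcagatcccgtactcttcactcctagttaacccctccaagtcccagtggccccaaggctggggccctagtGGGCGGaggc
Tyro3: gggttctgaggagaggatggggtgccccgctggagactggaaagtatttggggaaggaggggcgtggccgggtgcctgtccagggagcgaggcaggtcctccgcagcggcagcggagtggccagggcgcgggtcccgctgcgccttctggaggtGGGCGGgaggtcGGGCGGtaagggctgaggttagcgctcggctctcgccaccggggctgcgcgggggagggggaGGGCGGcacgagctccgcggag
Mfge8: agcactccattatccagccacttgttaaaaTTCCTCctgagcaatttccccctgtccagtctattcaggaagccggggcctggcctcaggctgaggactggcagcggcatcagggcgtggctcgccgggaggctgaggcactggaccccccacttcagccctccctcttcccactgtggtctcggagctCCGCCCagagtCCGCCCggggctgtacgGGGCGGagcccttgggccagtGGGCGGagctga
GC boxes were matched 3 times in Mertk, 1 time in Axl, 3 times in Tyro3 and 4 times in Mfge8, and 32.7% of 32851 promoters of this length held at least 1. The PU.1 core was matched 1 time each in Axl and Mfge8, and in 23.3% of all promoters. No match was found in these 4 windows for AP-1 (TGANTCA, in 6.75% of all promoters), an E-box (CACGTG, 6.02%) or a TATA box (TATAAA, 12.4%). The motifs do not overlap one another here, and a match describes the letters alone. The Tyro3 window had the highest GC content of the 4, at 73.2%, and the median of all promoters was 52.4%.

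The libraries held 30513500 to 60540260 counts on genes, so that 3 counts, taken as the floor, were worth 0.0533 to 0.0996 CPM (counts scaled to the library total and normalised by TMM over the 12 libraries). Rnf31 itself lay between 12.8 and 22.5 CPM in all 12 libraries and did not differ by genotype in the test, with a log2 fold change of -0.08 on CD and 0.13 on HFD, so these whole-tissue counts do not check the genotype labels. Some libraries stood apart. WT CD replicate 3 carried 10200 CPM summed over 10 testis genes (chosen after their values were seen) against 4.49 to 351 elsewhere, and it is not in the authors' comparison tables, so the tests here used the other 11 libraries, and calls that differ with all 12 are given beside the members and lists they touch. Epididymis markers summed to 15210 CPM in WT CD replicate 2 and to 1411 CPM in replicate 1 of HoipA-KO HFD, against 100.8 or less in the others, and mural cell markers to 3325 CPM in that same HoipA-KO HFD library. Adipocyte markers, which check the labelled tissue, were detected in every library and summed to 15730 to 52420 CPM in WT CD, 29900 to 37130 in WT HFD, 14040 to 14220 in HoipA-KO CD and 11970 to 14300 in HoipA-KO HFD.

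On CD, 6 of the 8 members were higher in HoipA-KO than in WT GWAT, namely Axl, Lrp1, Gas6, Pros1, Mfge8 and Elmo1, and none was lower. Calls were made with edgeR (quasi-likelihood test, Benjamini-Hochberg adjusted p under 0.05), and of all 18427 genes tested 18.9% were called higher and 18.8% lower. The median log2 fold change was 1.52 over the 8 members and -0.06 over all genes. The same 6 members were called whichever of the 11 libraries was left out, with 15.3% to 18.5% of genes called higher, and with all 12 libraries, in which 15.6% of genes were called higher. The libraries of the 2 genotypes did not overlap for any of the 8 members, with HoipA-KO higher, while 27% of all genes were apart in this direction, and with WT CD replicate 3 included this held for 7 members, Tyro3 excepted, and for 19.9% of all genes. In whole tissue, more cells of a type and more RNA per cell cannot be told apart.

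On HFD, no member was called between the genotypes, while 4.2% of all genes were called higher and 7.62% lower. With all 12 libraries no member was called either, beside 0.531% of genes called higher and 2.25% lower. By unadjusted p under 0.05, 3 members were higher, namely Gas6, Pros1 and Elmo1, beside 15.5% of all genes. DESeq2's Wald test called Elmo1 at 0.67 and 12% of all genes higher. Without WT HFD replicate 3, Axl (log2 fold change 0.91, adjusted p = 0.0363) and Elmo1 (0.89, adjusted p = 0.0336) were called by edgeR's test, with 6.25% of all genes called higher. The median log2 fold change of the members was 0.59 against 0.06 over all genes. Gas6 and Elmo1 were the members whose HoipA-KO libraries all lay above the WT libraries, which held for 20.6% of all genes.

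In WT mice, HFD raised 4 members, namely Axl, Pros1, Mfge8 and Lrp1, and lowered none, beside 9.35% of all genes called higher and 5.47% lower. The median log2 fold change was 1.00 over the members and 0.00 over all genes. This count depended on single libraries, being 1 (Mfge8) without WT CD replicate 2, 2 (Axl and Mfge8) without WT HFD replicate 2 or without WT HFD replicate 3, and 5 (Elmo1 added, adjusted p = 0.0459) without WT HFD replicate 1. In these fits 3.93%, 5.35%, 4.7% and 8.94% of all genes, in that order, were called higher. The call of Lrp1 was also lost without HoipA-KO CD replicate 1 (adjusted p = 0.0542) or HoipA-KO HFD replicate 3 (adjusted p = 0.0505), through the spread that all groups share. A fit of the WT groups alone called 0 of 17200 genes in edgeR's test, with 4666 at an unadjusted p under 0.05. Libraries of HFD lay above both CD libraries for 6 members, the 4 called ones and Tyro3 and Elmo1, and for 23.9% of all genes, and with WT CD replicate 3 included for the 4 called ones and for 17.1%.

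In HoipA-KO mice, HFD against CD gave no call in any member, beside 0% of all genes, with 0 of 18427 in edgeR's test. At an unadjusted p under 0.05 there were 415 genes, and DESeq2's Wald test called 7, none of them a member. The members' median log2 fold change was 0.00 and that of all genes -0.02. Axl and Tyro3 were the 2 members whose HFD libraries all lay above the CD libraries, with 3.42% of all genes apart in this direction. The genotype comparison on CD and the diet comparison in WT share the WT CD libraries, and both comparisons of the HoipA-KO HFD group share those libraries, so their fold changes are given side by side below and are not independent.

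**Figure D1:**
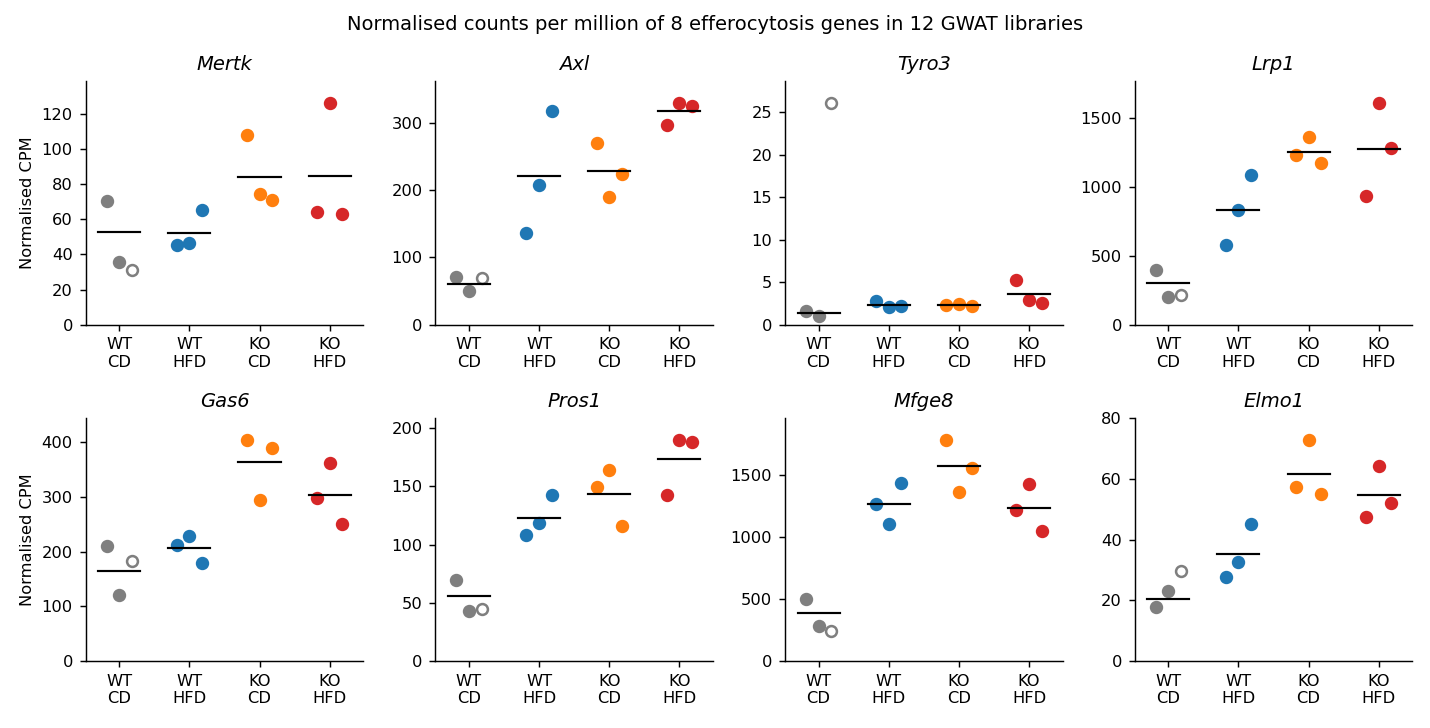
Normalised CPM (y axes, linear from 0) of the 8 members in WT and HoipA-KO (KO) GWAT on CD or HFD. Each point is 1 library of pooled RNA of 3 mice, the line is the group mean, and the open symbol is WT CD replicate 3, which is left out of the mean. Lrp1 runs from 204 to 397 CPM in WT CD and from 1171 to 1356 CPM in HoipA-KO CD, and the open symbol of Tyro3 stands at 26.1 CPM.

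Mertk, the receptor kinase best known from resident tissue macrophages, had 70.4, 35.6 and 31.2 CPM in WT CD, 45.5, 46.6 and 65.1 in WT HFD, 108, 74.7 and 70.8 in HoipA-KO CD, and 64.3, 126 and 63.0 in HoipA-KO HFD. WT CD replicate 1 was level with the lower HoipA-KO CD libraries, and replicate 2 of HoipA-KO HFD was the highest of the 12. The log2 fold change of HoipA-KO against WT was 0.71 on CD (SE 0.392, adjusted p = 0.176 in edgeR's test) and 0.71 on HFD (SE 0.345, adjusted p = 0.190), and neither passed. Leaving out 1 of the 11 libraries gave 0.31 to 1.28 on CD, with no call, and with all 12 libraries but WT CD replicate 1 Mertk was called higher there (1.37, adjusted p = 0.0132). HFD against CD gave -0.00 in both genotypes, with 95% confidence intervals of -0.86 to 0.86 in WT and -0.77 to 0.76 in HoipA-KO. The value in WT ran from -0.41 without WT CD replicate 2 to 0.59 without WT CD replicate 1, so no direction is given for it.

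Axl, the kinase that binds Gas6 alone among these ligands and is known from inflammatory conditions, had 71.7, 49.4 and 68.9 CPM in WT CD and 137, 207 and 319 in WT HFD. It had 270.5, 191 and 225 CPM in HoipA-KO CD and 298, 329.5 and 325 in HoipA-KO HFD. The libraries of WT HFD and of HoipA-KO CD all lay above the 3 of WT CD, which held for 17.1% and 19.9% of all genes. WT HFD spread more widely than any other group. Axl was 3.88-fold higher in HoipA-KO on CD (log2 1.96, SE 0.341, adjusted p = 0.0023) and 3.68-fold higher on HFD in WT (log2 1.88, SE 0.339, adjusted p = 0.00917). The second call was lost without WT CD replicate 2 (log2 1.64, adjusted p = 0.0569). Between genotypes on HFD the log2 fold change was 0.54 (adjusted p = 0.219), and between diets in HoipA-KO it was 0.46 (adjusted p = 1).

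Tyro3, which is best known from the nervous system, was low in nearly every library, with 1.58 and 1.06 CPM in WT CD replicates 1 and 2, 2.13 to 2.82 in WT HFD, 2.25 to 2.42 in HoipA-KO CD and 2.60 to 5.24 in HoipA-KO HFD. HoipA-KO HFD replicate 1, the library with epididymis and mural cell markers, had the 5.24 CPM, and replicates 2 and 3 had 2.93 and 2.60. WT CD replicate 3 had 26.1 CPM and was far above all others. This is the library with the testis genes, and their part in the value was not tested. The log2 fold change on CD was 0.85 (SE 0.357, adjusted p = 0.0851) over 11 libraries and turned to -2.05 (SE 0.978, adjusted p = 0.124) over all 12. The diet effect in WT turned likewise from 0.86 (adjusted p = 0.131) to -2.01 (adjusted p = 0.174), so no direction is given for Tyro3 against WT CD.

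Lrp1, a large endocytic receptor that takes up many ligands and binds calreticulin and C1q on dying cells, had 397, 204 and 214 CPM in WT CD and 575, 833 and 1087 in WT HFD. It had 1232, 1356 and 1171 CPM in HoipA-KO CD and 931, 1604 and 1277 in HoipA-KO HFD. HoipA-KO libraries on CD were close together and stood above the 3 of WT CD, which held for 19.9% of all genes. The rise in HoipA-KO on CD was 4.30-fold (log2 2.10, SE 0.391, adjusted p = 0.00312), and that on HFD in WT was 2.79-fold (log2 1.48, SE 0.379, adjusted p = 0.0315). Between genotypes on HFD the log2 fold change was 0.63 (adjusted p = 0.208), with libraries that overlapped.

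Gas6, the vitamin K-dependent ligand of the 3 kinases, had 210, 121 and 182 CPM in WT CD, 212, 229 and 179 in WT HFD, 403, 295 and 389.5 in HoipA-KO CD, and 297, 362 and 251 in HoipA-KO HFD. On each diet the HoipA-KO libraries all lay above the WT libraries, and the diets overlapped within each genotype. The first held for 19.9% of all genes on CD, with WT CD replicate 3 included, and for 20.6% on HFD. On CD the rise was 2.25-fold (log2 1.17, SE 0.272, adjusted p = 0.00899). On HFD the log2 fold change was 0.57 (SE 0.235, adjusted p = 0.130) and did not pass. The diet effect was 0.33 in WT (adjusted p = 0.419) and -0.27 in HoipA-KO (adjusted p = 1). The exons of Gas6 overlap those of Tmem255b on the opposite strand over 34 bases.

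Pros1 encodes protein S, an anticoagulant in plasma and the ligand of Tyro3 and Mertk. It had 69.7, 43.1 and 44.8 CPM in WT CD, 108, 119 and 143 in WT HFD, 149.8, 164 and 116 in HoipA-KO CD, and 142, 189.9 and 188 in HoipA-KO HFD. WT CD was the low group and the other 3 overlapped. Pros1 was 2.62-fold higher in HoipA-KO on CD (log2 1.39, SE 0.267, adjusted p = 0.00365) and 2.21-fold higher on HFD in WT (log2 1.14, SE 0.264, adjusted p = 0.0222). The diet call was lost without WT CD replicate 2 (adjusted p = 0.12), WT HFD replicate 2 (adjusted p = 0.0563) or WT HFD replicate 3 (adjusted p = 0.0778). On HFD between genotypes the log2 fold change was 0.51 (adjusted p = 0.157).

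Mfge8, the milk fat globule protein that bridges phosphatidylserine to the αvβ3 and αvβ5 integrins, had 500.3, 287 and 245 CPM in WT CD and 1268, 1106 and 1438 in WT HFD. It had 1785, 1367 and 1560.0 CPM in HoipA-KO CD and 1224, 1433 and 1049 in HoipA-KO HFD. The 3 WT CD libraries were the lowest, and WT HFD and HoipA-KO HFD covered the same range. Mfge8 was 4.10-fold higher in HoipA-KO on CD (log2 2.04, SE 0.288, adjusted p = 0.000907) and 3.26-fold higher on HFD in WT (log2 1.70, SE 0.283, adjusted p = 0.00725). On HFD the genotypes differed by a log2 fold change of -0.02 (95% confidence interval -0.56 to 0.51, adjusted p = 0.955). HFD against CD in HoipA-KO gave -0.36 (SE 0.238, adjusted p = 1).

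Elmo1, which with Dock proteins activates Rac1 downstream of engulfment receptors, had 17.9, 23.0 and 29.8 CPM in WT CD, 27.6, 32.7 and 45.3 in WT HFD, 57.3, 72.7 and 54.8 in HoipA-KO CD, and 47.6, 64.1 and 52.0 in HoipA-KO HFD. On each diet all HoipA-KO libraries lay above all WT libraries. This held for 19.9% of all genes on CD, with WT CD replicate 3 included, and for 20.6% on HFD. On CD Elmo1 was 3.12-fold higher in HoipA-KO (log2 1.64, SE 0.259, adjusted p = 0.00143). The difference on HFD was 0.65 on the log2 scale (SE 0.219, adjusted p = 0.0799), which edgeR's test did not call and DESeq2 did (0.67, adjusted p = 0.0232). The diet effect in WT, 0.80 (adjusted p = 0.0595), was likewise called by DESeq2 (0.74, adjusted p = 0.0262), and by edgeR with library size alone (0.82, adjusted p = 0.0454). Exons of Elmo1 overlap those of Gm32036 on the opposite strand over 403 bases.

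**Figure D2:**
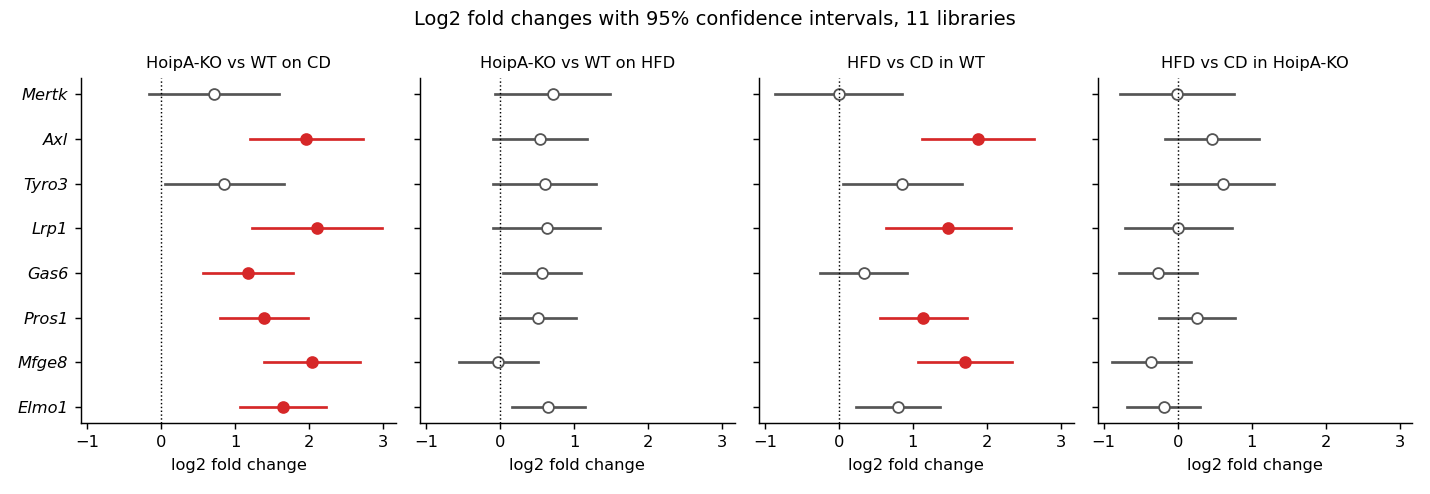
Log2 fold changes (x axes) of the 8 members in 4 comparisons over 11 libraries, with 95% confidence intervals as lines. Filled red points passed edgeR's quasi-likelihood test at an adjusted p of 0.05, and open points did not; 6 are filled on CD between the genotypes and 4 between the diets in WT.

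The genotype by diet interaction asks whether the genotype effect on HFD differed from that on CD. Mfge8 was the 1 member called, at -2.06 on the log2 scale (SE 0.366, adjusted p = 0.0256 in edgeR's test), beside 3.58% of all genes called lower, and it was called with all 12 libraries as well (-2.23, adjusted p = 0.0197), where 2.7% of all genes were called lower. Its genotype effect was 2.04 on CD and -0.02 on HFD. The call was lost when any 1 of 8 libraries was left out, namely WT CD replicate 2, WT HFD replicates 2 and 3, each HoipA-KO CD replicate and HoipA-KO HFD replicates 1 and 3, with adjusted p between 0.0564 and 0.0887 and values between -2.15 and -1.72. Without WT CD replicate 1, Axl (-1.72), Lrp1 (-2.04) and Pros1 (-1.27) were called beside Mfge8, and 9.33% of all genes were called lower. Without WT HFD replicate 1, Axl (-1.66) was called beside Mfge8, with 5.17% of all genes lower. DESeq2 called Axl (-1.36) and Lrp1 (-1.42) beside Mfge8, with 7.97% of all genes lower. In the fit of 11 libraries the other values were -1.47 for Lrp1 (adjusted p = 0.120), -1.42 for Axl (adjusted p = 0.0981), -0.99 for Elmo1 (adjusted p = 0.121), -0.88 for Pros1 (adjusted p = 0.168), -0.60 for Gas6 (adjusted p = 0.343), -0.25 for Tyro3 (adjusted p = 0.791) and -0.00 for Mertk. The members' median was -0.94 and that of all genes -0.01.

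Per kilobase of exon (union of the exons in GENCODE M21, GRCm38), Mfge8 was the most abundant member in every group, at 83.9 ± 32.1 CPM per kb in WT CD (SD, n = 2), and, with n = 3 each, at 335 ± 44.6 in HoipA-KO CD, 263 ± 41.0 in HoipA-KO HFD and 271 ± 35.4 in WT HFD. Gas6 and then Lrp1 followed in every group by their means, at 64.9 and 17.0 CPM per kb in WT CD and at 142 and 70.7 in HoipA-KO CD. Tyro3 was the lowest in every group, between 0.214 and 0.579 CPM per kb, and Elmo1 the next, between 1.62 and 4.90. Mertk and Axl were level in WT CD, at 8.21 to 16.2 and 9.82 to 14.2 CPM per kb, and Pros1 and Lrp1 overlapped them. The libraries of Mfge8 and Gas6 also overlapped in WT CD, those of Lrp1 and Axl in both HFD groups, and those of Axl and Pros1 in WT HFD and HoipA-KO CD, so these neighbours are not set in order. In the other groups Axl had 43.9, 45.4 and 63.1 CPM per kb and Mertk 12.1, 19.5 and 19.5, with no overlap. Taking the longest coding transcript in place of all exons exchanged the places of Mertk and Axl in WT CD and changed no other rank.

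The ratio of Axl to Mertk within a library, in which gene length and depth cancel between groups, was 0.03, 0.47 and 1.14 on the log2 scale in WT CD. It was 1.59 to 2.29 in WT HFD, 1.33 to 1.67 in HoipA-KO CD and 1.39 to 2.37 in HoipA-KO HFD. All 3 WT CD libraries lay below all 9 others, which overlapped one another. The ratio of Gas6 to Pros1 was 1.48 to 2.03 in WT CD, 0.32 to 0.97 in WT HFD, 0.85 to 1.75 in HoipA-KO CD and 0.42 to 1.06 in HoipA-KO HFD, so that it was lower on HFD than on CD in WT without overlap, and overlapped between the diets in HoipA-KO. These ratios describe the libraries and were not tested. The share of other gene pairs whose ratios separate the groups in this way was not counted.

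Macrophage markers were set beside the members, of which 6 of 8 were called higher between genotypes on CD and 4 between diets in WT. In the latter Mertk was at -0.00 and Gas6 at 0.33, and neither was called, nor were Tyro3 and Elmo1. The 8 markers (Adgre1, Cd68, Csf1r, Itgam, Fcgr1, Lyz2, Ptprc and Cd14) were all detected in every library and summed to 315 to 465 CPM in WT CD, 1538 to 4802 in WT HFD, 8106 to 11420 in HoipA-KO CD and 5755 to 9641 in HoipA-KO HFD. All 8 were higher in HoipA-KO on CD and on HFD in WT, beside 18.9% and 9.35% of all genes. On HFD 2 were higher in HoipA-KO, and 0 with all 12 libraries, beside 4.2% and 0.531% of all genes. In the genotype by diet interaction 6 of the 8 were called lower with 11 and with 12 libraries, at a median of -3.30 over 11. Of all genes 3.58% and 2.7% were called lower in these 2 fits. The 5 proliferation markers were all called lower in the interaction over 11 libraries (median -2.68), and none was over 12. Stromal progenitor markers summed to 1273 to 2189 CPM in WT CD, 3798 to 6872 in WT HFD, 5813 to 7897 in HoipA-KO CD and 7779 to 8374 in HoipA-KO HFD. In WT HFD, whose 3 libraries had macrophage sums of 1538, 2824 and 4802 CPM, Mertk, Axl, Lrp1, Pros1 and Elmo1 took the same order. Gas6, Mfge8 and Tyro3 did not. In HoipA-KO CD the library with the highest sum, 11420 CPM, had the lowest Axl, Gas6 and Mfge8 of its group. It had the highest Lrp1, Pros1, Elmo1 and Tyro3, and Mertk lay between the others. The share of all genes in either order was not counted. The part of cell numbers in the members' values was not tested.

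Mertk, Elmo1 and Axl were set against the geometric mean of the macrophage markers in the same library. For Mertk the log2 ratio was 0.74 to 1.59 in WT CD, -2.13 to -0.92 in WT HFD, -2.74 to -1.81 in HoipA-KO CD and -2.61 to -1.90 in HoipA-KO HFD. For Elmo1 it was -0.38 to 0.77 in WT CD and -2.88 to -1.65 in the other groups. For Axl the gap was smaller, at 1.22 to 1.98 in WT CD, 0.16 to 0.67 in WT HFD, -1.39 to -0.49 in HoipA-KO CD and -0.51 to -0.02 in HoipA-KO HFD. For all 3 genes every WT CD library lay above every other library, since the markers changed by more than the members did. The markers' median log2 fold change was 4.31 between genotypes on CD and 2.97 between diets in WT. A gene that rose by less has a lower ratio there, so this order was set by the markers. For Axl every WT HFD library also lay above every HoipA-KO library, and for Elmo1 it did so narrowly, at -2.65 or more against -2.67 or less. For Mertk these groups overlapped. The share of all genes with such separations was not counted.

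**Figure D3:**
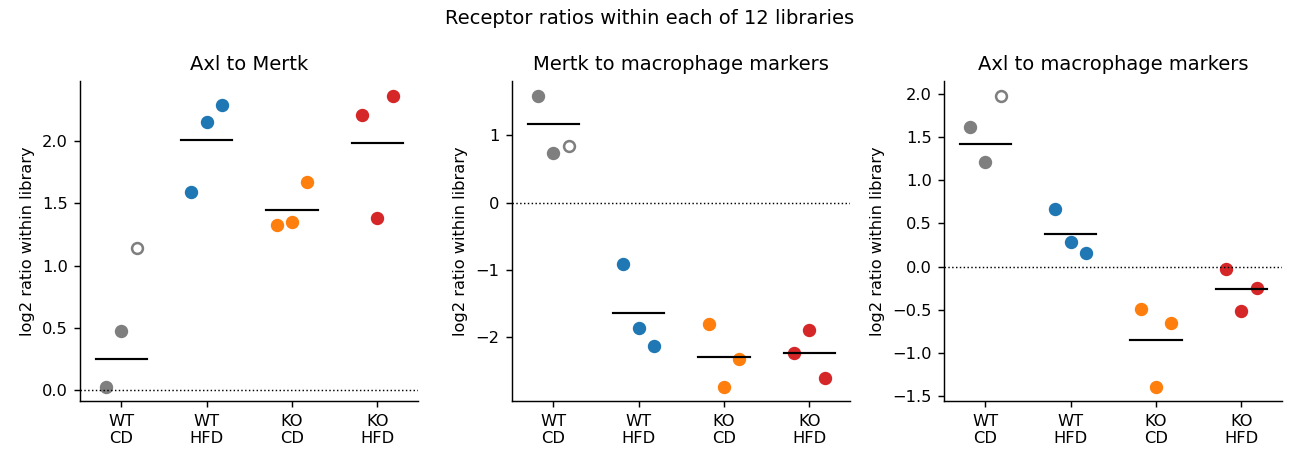
Log2 ratios within each library (y axes) of Axl to Mertk, of Mertk to the geometric mean of 8 macrophage markers, and of Axl to the same mean, by group, with 1 point per library, group means as lines and WT CD replicate 3 as an open symbol outside the mean. WT CD lies lowest in the first panel, at 1.14 or less, and highest in the others, at 0.74 or more.

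Across the 12 libraries, which share their 4 groups and so are not independent points, Pearson's r of log2(CPM + 1) with the mean of the macrophage markers was 0.976 for Lrp1, 0.952 for Pros1, 0.943 for Axl, 0.914 for Mfge8 and 0.912 for Elmo1. It was 0.756 for Gas6 and 0.722 for Mertk. With the mean of the stromal progenitor markers r was 0.951 for Axl, 0.942 for Pros1, 0.921 for Lrp1 and 0.910 for Mfge8, and 0.736 for Elmo1, 0.617 for Gas6 and 0.609 for Mertk. Axl, Pros1 and Mfge8 thus lay about as near to the one marker mean as to the other. Tyro3 gave -0.267 and -0.339 over 12 libraries, and 0.621 and 0.742 without WT CD replicate 3. Among the members Lrp1 and Pros1 were nearest each other, at 0.976.

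**Figure D4:**
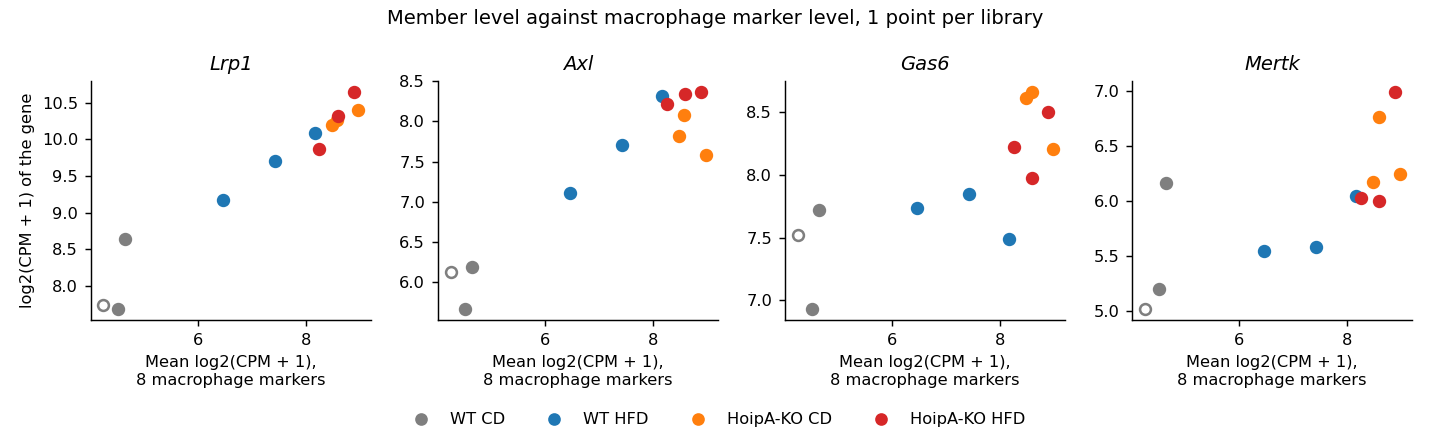
Log2(CPM + 1) of Lrp1, Axl, Gas6 and Mertk (y axes) against the mean log2(CPM + 1) of 8 macrophage markers (x axes), with 1 point per library, colour by group and WT CD replicate 3 as an open symbol. Lrp1 follows the markers most closely of the 4, with r of 0.976, and Mertk least, with 0.722.

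Among 10278 genes with a mean of at least 10 CPM, those with the highest r to each member over 12 libraries were Slc46a3, Foxj3 and Irf2 for Mertk (0.943 to 0.951), and Gpr34, Antxr1 and Pdgfra for Axl (0.979 to 0.985). They were E2f1, Coro1c and Gng2 for Lrp1 (0.993 to 0.997), Ecm1, Il17ra and Slpi for Gas6 (0.920 to 0.927), and Selenon, Ifi204 and Rcan3 for Pros1 (0.983 to 0.987). For Mfge8 they were Fam20c, Ephx1 and Ear2 (0.978 to 0.986), and for Elmo1 5031439G07Rik, Mad2l1 and Ddx31 (0.983 to 0.988). Those of Tyro3 were Fam53c, Nxn and Cep164 (0.955 to 0.959), and their r was 0.691 to 0.753 without WT CD replicate 3.

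Other genes of the clearance of dying cells were followed in lists. Beside the counts below, 18.9% of all genes were called higher and 18.8% lower on CD. On HFD these shares were 4.2% and 7.62%, and between the diets in WT 9.35% and 5.47%. With all 12 libraries they were 15.6% and 19.1% on CD, 0.531% and 2.25% on HFD, and 9.05% and 5.97% between the diets in WT. Of 15 tested other receptors for dying cells (16 listed), 8 were higher in HoipA-KO on CD and none was lower. On HFD 3 were higher (Trem2, Itgb3 and Cd300lf) and 1, Timd4, was lower, and with all 12 libraries none of the 15 was called. Cd300lf had 8.15 CPM in HoipA-KO HFD replicate 1, the library with epididymis and mural cell markers, and 1.04 and 0.658 CPM in the other two. Between the diets in WT 7 were higher. With all 12 libraries 7 were higher and 1 lower on CD, and 6 higher between the diets in WT. Trem2, a lipid receptor of macrophages around dying adipocytes, had the largest rise in this list on CD, from 7.64 and 8.65 CPM in WT to 510 to 669 CPM in HoipA-KO (log2 6.20, SE 0.669, adjusted p = 0.000452), and was also higher on HFD (log2 1.69, adjusted p = 0.0424). Cd36, the fatty acid and scavenger receptor that adipocytes also express, was the most abundant of the list, at 3418 ± 1950 CPM in WT CD (SD, n = 2) and 6781 ± 1880 in HoipA-KO CD (SD, n = 3), and did not pass (log2 1.04, adjusted p = 0.103).

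Of 9 other bridging molecules, 6 were higher in HoipA-KO on CD, 3 on HFD, namely C1qa, C1qb and C1qc, and 4 on HFD in WT. With all 12 libraries these counts were 5, 0 and 5. C3, the central complement component, went from 353 and 492 CPM in WT CD to 1176 to 2004 CPM in HoipA-KO CD (log2 2.04, SE 0.275, adjusted p = 0.000761). Edil3, a relative of Mfge8, was named by its fold change but stayed at 2.85 CPM or less in every library, with 0 and 0.109 CPM in WT CD, and lost its call with all 12 libraries (adjusted p = 0.0792).

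Of 13 genes of the engulfment machinery, 6 were higher and 2 lower in HoipA-KO on CD, 2 were higher on HFD (Rac2 and Rhog), and 3 were higher (Dock2, Rac2 and Rhog) and 1 lower (Arhgef16) between the diets in WT. With all 12 libraries 7 were higher and 1 lower on CD, 1 was higher on HFD (Rac2), and 5 were higher and 1 lower between the diets in WT. Dock2, the partner of Elmo1 in leukocytes, rose from 10.8 and 11.1 CPM to 197 to 328 CPM on CD (log2 4.55, SE 0.558, adjusted p = 0.000556). Rac1, the small GTPase that both act on and the most abundant gene of the list, rose less (log2 0.67, SE 0.206, adjusted p = 0.0295). Elmo3, the relative of Elmo1 in epithelia, was lower, from 18.9 and 19.0 CPM to 3.09 to 5.04 CPM (log2 -2.13, adjusted p = 0.003). Arhgef16, the other gene called lower, had 0.146 CPM in WT CD replicate 1 and 52.9 CPM in WT CD replicate 2, the library with epididymis markers, and was not called on CD with all 12 libraries (adjusted p = 0.0607).

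Of 10 find-me signals, exposure genes and brakes, 5 were higher in HoipA-KO on CD, 1 on HFD (P2ry6) and 3 on HFD in WT (P2ry6, Panx1 and Sirpa), against 5, 0 and 4 with all 12 libraries. The channel gene Panx1, whose product releases nucleotides from dying cells, rose from 2.76 and 3.17 CPM to 49.3 to 68.2 CPM on CD (log2 4.28, SE 0.604, adjusted p = 0.000906). Sirpa, the phagocyte receptor of the don't-eat-me signal Cd47, rose by 3.73 (adjusted p = 0.000582). Of 14 genes of digestion and the sterol response, 8 were higher and 2 lower (Ppard and Becn1) on CD, 1 was higher on HFD (Abcg1, log2 1.06), and 3 were higher and 1 lower between the diets in WT. With all 12 libraries 8 were higher and 1 lower on CD, none was called on HFD, and 3 were higher between the diets in WT. Cybb, the phagocyte NADPH oxidase subunit, rose by 4.74 on CD (adjusted p = 0.000752), and the lysosomal Lamp1 by 1.21 (adjusted p = 0.0139). The nuclear receptor gene Ppard fell by 0.77 over 11 libraries (adjusted p = 0.00533), from 34.4 and 47.6 CPM to 21.7 to 26.2 CPM. Its value in WT CD replicate 3, 13.3 CPM, lay below all HoipA-KO CD libraries, so this fall rests on WT CD replicates 1 and 2. Adam10 and Adam17, proteases that shed Mertk and Axl from the cell surface, were both higher in HoipA-KO on CD, by 1.03 (adjusted p = 0.0371) and 1.87 (adjusted p = 0.00299), and Adam17 was higher on HFD in WT (log2 1.33, adjusted p = 0.0297). In HoipA-KO no gene of these lists was called between the diets, with 0 called by edgeR's test among all genes.

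**Figure D5:**
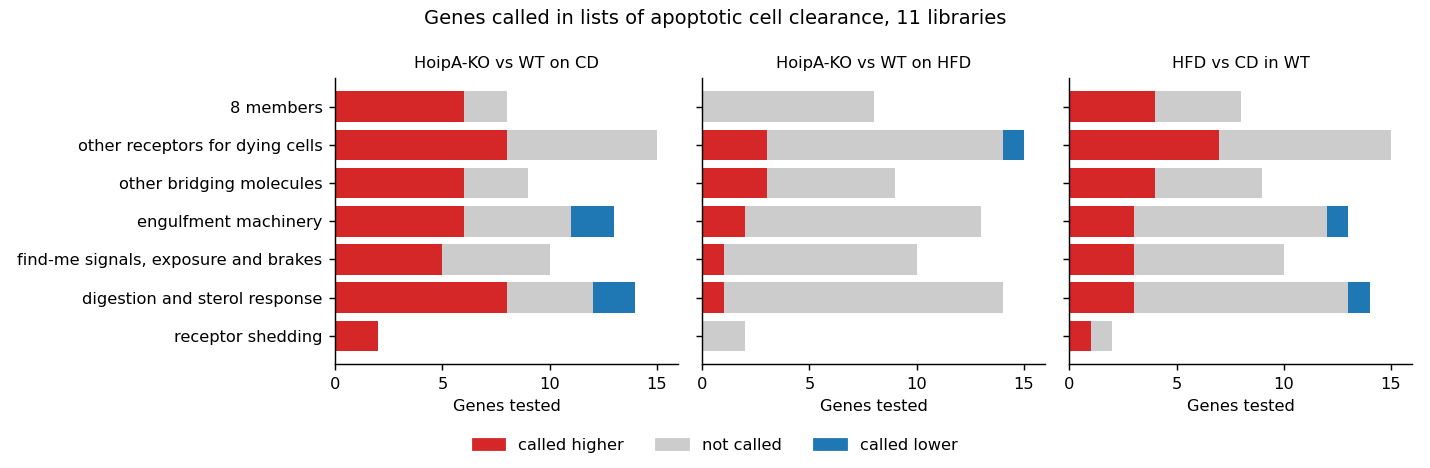
Genes tested (x axes) of the 8 members and of 6 other lists of apoptotic cell clearance in 3 comparisons over 11 libraries, with genes called higher in red, called lower in blue and not called in grey. On CD between the genotypes 6 of 8 members and 8 of 15 other receptors are red, beside 18.9% of all genes. On HFD no member is, beside 4.2%.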

How the data were processed

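Bulk RNA sequencing covered 12 libraries of GWAT. The authors trimmed reads with Trim Galore 0.6.7, aligned with STAR 2.7.10a and estimated counts per gene with Salmon 1.5.2, and deposited these estimated counts without normalization, for all genes (used here) and for the 21646 protein-coding genes (an alternative). The labels name GRCm38 and the methods a human build, while the identifiers are those of mouse, so GRCm38 was used for positions. The deposited DESeq2 tables of the authors (fold changes, p-values and CPM) were not used. Estimated counts were rounded, 59 genes without a symbol kept their identifier, and 18427 genes passed filterByExpr. TMM factors and 1 model of the 4 groups over 11 libraries were fitted with edgeR 4.0.16 in R 4.3.3 (limma 3.58.1), tested by quasi-likelihood with Benjamini-Hochberg adjustment at 0.05, after checking the script on simulated data. Log2 fold changes use a prior count of 0.125, and SE is the absolute log2 fold change fitted without that prior count, over the root of F. CPM values are normalised over 12 libraries. Deviations of same-numbered libraries from their group means correlated by 0.139 to 0.499 between HoipA-KO CD and HoipA-KO HFD. In the other pairs of groups they correlated by -0.311 to 0.371, and none of these had all 3 correlations over 0.1. Libraries of different numbers were not compared, so whether the numbers pair any libraries was not tested.

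The genes named are the 8 members, the 3 genes nearest each in r, and in each list the called genes with the largest rise and fall on CD and the most abundant gene. Timd4, Itgb3, Cd300lf, C1qa, C1qb, C1qc, Elmo3, Rac2, Rhog, P2ry6, Becn1 and Abcg1 were named after their values were seen. Members and lists were chosen with earlier results of these data known, and 1 gene of the macrophage list is not reported here. Alternatives were DESeq2 1.42.0 (size factors, and its Wald test), library size alone, no low-count filter, at least 10 counts in every library, all 12 libraries, protein-coding genes only, only the groups compared, a replicate block, and leaving out each library. The fits of all 12 libraries without WT CD replicate 1 or 2 were added after seeing the data. 51948 of 55281 identifiers matched GENCODE M21, and promoters of all 8 members matched RefSeq.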

Additional observations from a re-analysis of the deposited data

Results flagged for a closer look

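The genotype effect on Mfge8 differed between the diets by -2.06 on the log2 scale in edgeR's interaction test, with 500.3 and 287 CPM in WT CD, 1367 to 1785 CPM in HoipA-KO CD, 1106 to 1438 CPM in WT HFD and 1049 to 1433 CPM in HoipA-KO HFD. It is listed because the difference between the diets was itself tested and passed at an adjusted p of 0.0256. The call was lost in 8 of the 11 fits that left out 1 library. Macrophage markers moved with it, 6 of 8 being called lower in the same interaction at a median of -3.30, and so did 5 of 5 proliferation markers over 11 libraries (median -2.68) and 0 of 5 over 12. Of all genes 3.58% were called lower over 11 libraries and 2.7% over 12. The part of these markers in the value was not tested.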

How the results depend on the processing

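Of 872 log2 fold changes of members under alternatives, 780 kept their direction and their side of the threshold, 23 lost the call, 18 gained it and 51 changed sign. The changed signs were Tyro3 with all 12 libraries (-2.05 between genotypes on CD, -2.01 between diets in WT and 2.64 in the interaction), with all 12 but WT CD replicate 1 (-2.50, -2.47 and 3.10) and with all 12 but WT CD replicate 2 (-2.56, -2.53 and 3.16), and Tyro3 in the interaction without WT CD replicate 2 (0.01) or HoipA-KO HFD replicate 3 (0.02). Mertk, at -0.00 in both diet comparisons and in the interaction, changed sign most often. Between diets in WT it was 0.20 with all 12 libraries, 0.68 and 0.05 with all 12 but WT CD replicate 1 or 2, 0.08 with library size alone and 0.07 with the replicate block. Between diets in HoipA-KO it was 0.05 with library size alone, 0.01 with at least 10 counts in every library or with the block, and 0.00 with DESeq2 (size factors or test), with all 12 libraries, with all 12 but WT CD replicate 2, with only the groups compared and with protein-coding genes. In the interaction it was 0.05 with DESeq2 (size factors or test), 0.04 with no filter or the strict one, and 0.08 with protein-coding genes. The others lay near 0, namely Mfge8 between genotypes on HFD with library size alone (0.05) and without WT HFD replicate 3 (0.09) or HoipA-KO HFD replicate 3 (0.08), Gas6 between diets in WT without WT CD replicate 2 (-0.01), and Lrp1 between diets in HoipA-KO without the low-count filter (-0.01), with the replicate block (-0.01) and without HoipA-KO CD replicate 1 (-0.01), HoipA-KO CD replicate 3 (-0.03) or HoipA-KO HFD replicate 2 (-0.21). With 1 library left out, these values ranged from -0.41 to 0.59 for Mertk between diets in WT, -0.43 to 0.20 in HoipA-KO and -0.59 to 0.41 in the interaction, and from -0.56 to 0.02 for Tyro3 in the interaction, -0.16 to 0.09 for Mfge8, -0.01 to 0.80 for Gas6 and -0.21 to 0.22 for Lrp1. The cause was not tested.

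Members called higher in HoipA-KO on HFD numbered 1 with library size alone and 1 with DESeq2's Wald test (Elmo1 in both), and 0 to 2 when 1 library was left out. Those higher on HFD in WT numbered 2 with the replicate block, 0 with only the groups compared, and 1 to 5 when 1 library was left out. Members with a lower interaction numbered 3 with DESeq2's Wald test, 4 with all 12 libraries but WT CD replicate 1, and 0 to 4 when 1 library was left out. On CD, 1 member (Tyro3, adjusted p = 0.0358) was called lower with all 12 libraries but WT CD replicate 2, beside 3792 of 18556 genes. For the counts on HFD, 1279 of 18427 genes were called higher with library size alone and 2216 with DESeq2's Wald test. Between diets in WT, 1195 of 18427 were called higher with the replicate block and 0 of 17200 with only the groups compared. In the interaction, 1469 of 18427 were called lower with DESeq2's Wald test. With all 12 libraries but WT CD replicate 1 these were 1882 of 19416. Over all genes, calls on HFD between genotypes numbered 2179 in 11 libraries, 503 in all 12 and 4455 with DESeq2, and interaction calls 721, 502 and 2374. On CD 6947 genes were called, and 4208 with only the groups compared, and between diets in WT 2731, 4551 with DESeq2 and 0 with only the groups compared. With 1 library left out, interaction calls ran from 1 (without WT CD replicate 2 or HoipA-KO HFD replicate 3) to 3668 (without WT CD replicate 1), and 7 of the 11 such fits gave 4 or fewer.

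All 3 correlations of same-numbered libraries were over 0.1 between the HoipA-KO diets alone, where the replicate block gave 0 calls as the fit without it did. Single values elsewhere reached 0.371, for replicate 1 of WT HFD and HoipA-KO HFD. Whether the numbers pair any libraries was not tested. With the block the calls were 5893 on CD, 2561 on HFD, 1502 between diets in WT and 377 in the interaction, Tyro3 was called on CD (0.99, adjusted p = 0.0476), Pros1 and Lrp1 lost the diet call in WT, and Mfge8 kept its interaction (-2.08, adjusted p = 0.0471).

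Scaling by library size alone moved the median of all genes on HFD between genotypes to 0.15, and all 12 libraries moved it to -0.21 on CD. With 2 or 3 pools a group and WT CD resting on 2, 1 library can decide a call (with 1 WT CD library left, it is assumed to vary like the other groups), and the values of Tyro3 rest on few counts. Intervals and floors cover counting error or the spread between pools only.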
